A study of Mus musculus with 10 samples.

Results

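The genes followed were 8 genes of fat cell identity and secretion: Adipoq, Lep, Retn, Cfd, Car3, Fabp4, Pparg and Cebpa. They were taken by symbol from the deposited table of 21877 gene symbols, where each of the 8 had 1 row. The tissue was peritoneum from male C57BL/6 mice, either Mr1+/+ or Mr1-/-. Mice of each genotype had PBS or an equal volume of 4.25% peritoneal dialysis (PD) fluid injected into the peritoneal cavity for 6 weeks. Mr1 encodes a surface protein, related to MHC class I, which mucosal-associated invariant T cells recognise with its bound microbial metabolite, and all cells of a Mr1-/- mouse lack it, not only those of the peritoneum. The 4 groups were Mr1+/+ with PBS (3 libraries), Mr1+/+ with PD fluid (3 libraries), Mr1-/- with PBS (2 libraries) and Mr1-/- with PD fluid (2 libraries).

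Fat cells form from precursors under a pair of transcription factors, PPARγ (Pparg) and C/EBPα (Cebpa), which switch on each other and the genes of the mature cell. Among those genes are the lipid carrier Fabp4 and the secreted adipokines adiponectin (Adipoq), leptin (Lep), resistin (Retn) and adipsin (Cfd). Visceral fat lies directly under the mesothelium of the peritoneum, so a piece of peritoneum may carry fat cells in varying amount. In bulk RNA a change in the number of fat cells and a change in the RNA of each fat cell cannot be told apart.

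Libraries held 14145635 to 16335799 counts. Mr1 itself was counted 324 to 524 times per Mr1+/+ library and 29 to 39 times per Mr1-/- library, and these ranges did not overlap. Replicates 1 and 2 of Mr1+/+ PBS were nearly identical, with a chi-square per gene of 2.23, as were replicates 1 and 2 of Mr1-/- PD fluid (1.74). The other 6 pairs within groups gave 18.6 to 118, where 1 is counting noise. Each near-identical pair was summed and counted as 1 sample, which left 8 samples in groups of 2, 3, 2 and 1. Within those pairs the 8 genes differed by at most 1.07-fold (Fabp4). Mr1+/+ PBS replicate 3 stood apart through transcripts of gut and pancreas, with 8 intestinal genes at a summed 1889 CPM against 20.0 to 32.5 CPM in the other samples. CPM are counts per 1000000 of the TMM-scaled library. The mesothelial genes Msln and Upk3b were present in every library, at 124 to 837 and 384 to 2970 counts.

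The 8 genes were abundant and well counted, from a minimum of 427 counts for Pparg to a maximum of 123470 for Car3 in a library. Together they made up 0.433% and 0.537% of the scaled counts in the Mr1+/+ PBS samples and 1.34%, 1.71% and 2.13% in the Mr1+/+ PD fluid samples. They made up 0.637% and 0.899% in the Mr1-/- PBS samples and 0.764% in the Mr1-/- PD fluid sample. Per length of the principal transcript, Cfd (a mean of 2850.4 CPM per kb over the 8 samples), Car3 (2691) and Fabp4 (2089.8) were the most abundant. Adipoq followed at 646 CPM per kb, then Retn at 148 and Cebpa at 111. Lep (50.5) and Pparg (50.3) were the least abundant.

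In Mr1+/+ mice 7 of the 8 genes rose after PD fluid, by 2.77-fold (Cebpa) to 4.05-fold (Retn), and Lep did not pass the test. Across all 15385 genes tested, 8.49% rose and 6.37% fell by the same rule, an adjusted p under 0.05 in edgeR's quasi-likelihood test with Benjamini-Hochberg adjustment over all genes. The median log2 fold change of the 8 genes was 1.79, against -0.06 over all genes. In all 8 genes each of the 3 Mr1+/+ PD fluid samples lay above both Mr1+/+ PBS samples, a separation that 25.0% of all genes showed. For 7 of the 8, all but Lep, the 3 samples also lay above those of the other 3 groups together, as they did for 16.5% of all genes.

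**Figure D1:**
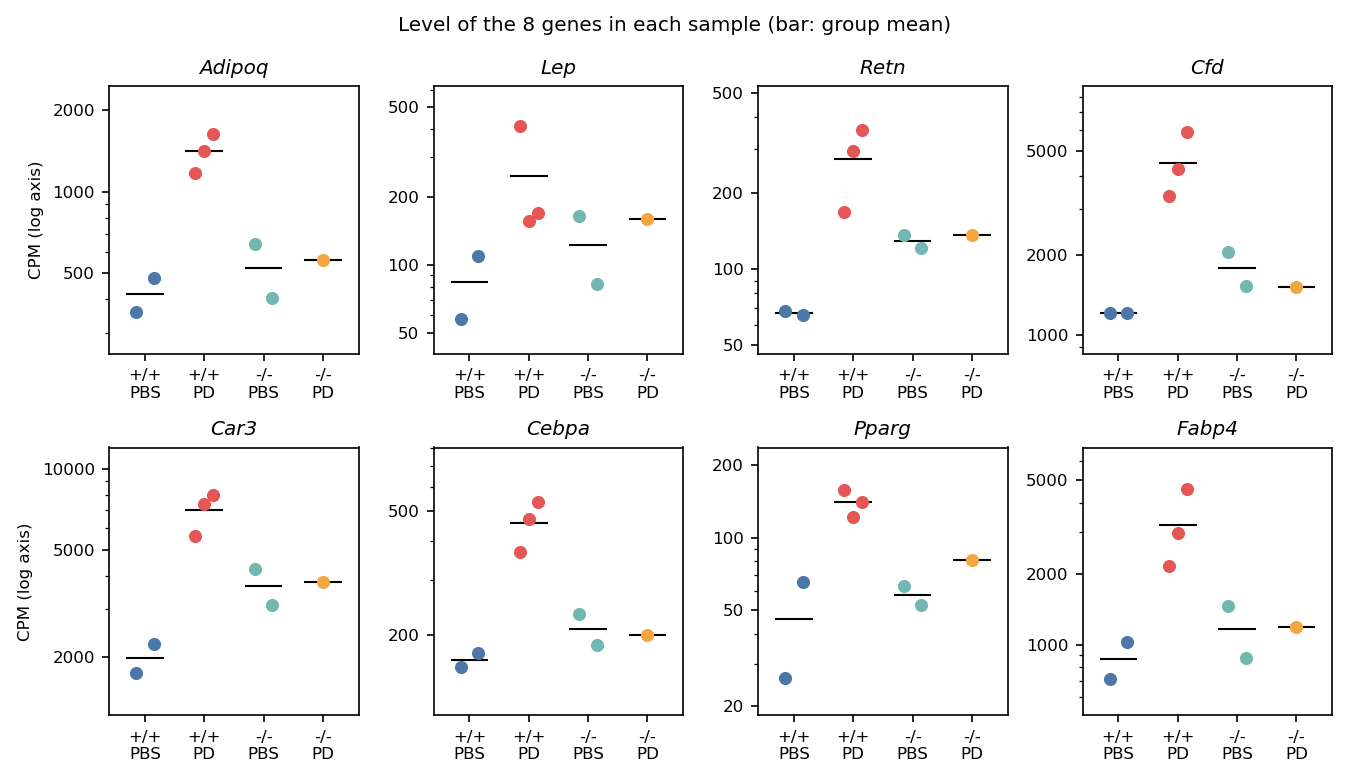
Each panel plots one gene's CPM on a log axis by genotype and treatment, with a point per sample (near-identical libraries summed) and a bar at the group mean. The 3 Mr1+/+ PD fluid samples are the highest points for every gene but Lep, where 2 of them (158 and 169 CPM) lie beside the highest Mr1-/- sample (164 CPM).

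Among the secreted products, Adipoq (mm10 chromosome 16, 23146536 to 23158028, plus strand) encodes adiponectin, a hormone of mature fat cells that raises insulin sensitivity. Adipoq was at 359.7 and 478 CPM in the Mr1+/+ PBS samples and at 1176, 1415 and 1643 CPM after PD fluid. In Mr1-/- mice Adipoq was at 404 and 642 CPM with PBS and 559.6 CPM with PD fluid, inside the PBS range. The log2 fold change after PD fluid was 1.75 in Mr1+/+ (SE 0.26, edgeR adjusted p = 0.0124) and 0.10 in Mr1-/- (SE 0.33).

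Cfd (chromosome 10, 79890853 to 79892655, plus strand) encodes adipsin, the complement factor D protease that fat cells release. It was at 1211 and 1213 CPM in Mr1+/+ PBS and at 3357, 4271 and 5859 CPM in Mr1+/+ PD fluid. The Mr1-/- samples had 1527 and 2066 CPM with PBS and 1522 CPM with PD fluid, the last below both PBS values, as in 27.9% of all genes. Cfd thus rose by 1.89 on the log2 scale in Mr1+/+ (SE 0.27, edgeR adjusted p = 0.0124) and was at -0.24 (SE 0.34) in Mr1-/-.

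Retn (chromosome 8, 3655770 to 3660110, plus strand) encodes resistin, which in mice comes mainly from white fat. Its CPM were 66.0 and 68.4 in Mr1+/+ PBS and 168, 293 and 356 in Mr1+/+ PD fluid. Both Mr1-/- PBS samples (122 and 137 CPM) and the Mr1-/- PD fluid sample (136 CPM) lay between those groups without touching either. Retn had the highest log2 fold change of the 8 in Mr1+/+, 2.02 (SE 0.30, edgeR adjusted p = 0.0124), and was at 0.07 (SE 0.38) in Mr1-/-.

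Lep (chromosome 6, 29060220 to 29073877, plus strand) encodes leptin, the hormone that reports fat stores to the brain. Lep was at 57.9 and 109.9 CPM in Mr1+/+ PBS, and at 415, 158 and 169 CPM in Mr1+/+ PD fluid replicates 1, 2 and 3. In Mr1-/- mice it was at 164 and 82.5 CPM with PBS and 160.1 CPM with PD fluid. Replicate 1 of Mr1+/+ PD fluid was 2.63 and 2.45 times replicates 2 and 3, the widest spread of the 8 genes in that group. The log2 fold change in Mr1+/+ was 1.56 (SE 0.62, edgeR adjusted p = 0.144), and 0.96 without that replicate.

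Car3 encodes carbonic anhydrase III, a cytosolic enzyme that is abundant in fat, slow muscle fibres and liver (chromosome 3, 14863512 to 14872523, plus strand). Car3 was at 1732 and 2230.5 CPM in Mr1+/+ PBS and 5645, 7412 and 8001 CPM in Mr1+/+ PD fluid. It was at 3117 and 4225 CPM in Mr1-/- PBS and 3788 CPM in Mr1-/- PD fluid, so that every Mr1-/- sample lay above Mr1+/+ PBS and below Mr1+/+ PD fluid. The log2 fold change after PD fluid was 1.82 in Mr1+/+ (SE 0.24, edgeR adjusted p = 0.0124) and 0.05 in Mr1-/- (SE 0.30). The 7 tested skeletal muscle genes summed to 13.9 to 39.0 CPM over the samples. The 8 liver genes summed to 1.78 and 240.7 CPM in the Mr1+/+ PBS samples, 4.67 to 5.83 CPM in Mr1+/+ PD fluid and 90.2 to 148 CPM in Mr1-/- samples. The albumin gene Alb, which passed in Mr1+/+ (2.20, SE 0.59), was at 0.215 to 2.17 CPM in Mr1+/+ and 64.1 to 107 CPM in Mr1-/- samples, while the apolipoprotein gene Apoa1 was highest in Mr1+/+ PBS replicate 3, at 141 CPM against 5.41 to 9.52 CPM in Mr1-/-. The part of liver transcripts in the Car3 level was not tested.

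Fabp4 (chromosome 3, 10204088 to 10208576, minus strand) encodes the fatty acid binding protein of fat cells, which macrophages and endothelium also make. Fabp4 was at 718 and 1028 CPM in Mr1+/+ PBS and at 2152, 2970.3 and 4582 CPM in Mr1+/+ PD fluid. With PBS the Mr1-/- samples had 878 and 1462 CPM, and with PD fluid 1189.7 CPM. The log2 fold change was 1.89 in Mr1+/+ (SE 0.39, edgeR adjusted p = 0.0244) and 0.02 in Mr1-/- (SE 0.49).

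Of the transcription factors, Pparg (chromosome 6, 115360951 to 115490399, plus strand) was at 26.3 and 65.6 CPM in Mr1+/+ PBS, where replicate 3 was 2.45 and 2.54 times replicates 1 and 2 taken singly. It was at 158, 123 and 141 CPM in Mr1+/+ PD fluid. The Mr1-/- samples had 52.6 and 63.2 CPM with PBS and 80.7 CPM with PD fluid, above both, as 28.7% of all genes were. The log2 fold change was 1.62 in Mr1+/+ (SE 0.38, edgeR adjusted p = 0.0354) and 0.48 in Mr1-/- (SE 0.47). Without Mr1+/+ PBS replicate 3, the higher of its samples, Pparg was at 2.42 in Mr1+/+ (edgeR adjusted p = 0.00721). Its call was lost without any 1 of the 3 Mr1+/+ PD fluid replicates (edgeR adjusted p of 0.0816, 0.0769 and 0.119 without replicates 1, 2 and 3), without either Mr1-/- PBS replicate (0.0620 and 0.0625), with only the groups compared (0.0667) and with a skeletal muscle covariate (0.647), at log2 fold changes of 1.37 to 1.73.

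Cebpa (chromosome 7, 35119293 to 35121928, plus strand) was at 157 and 175 CPM in Mr1+/+ PBS and 370.3, 474 and 536 CPM in Mr1+/+ PD fluid. In Mr1-/- mice it was at 185 and 234 CPM with PBS and 199 CPM with PD fluid. It had the smallest log2 fold change of the 8 in Mr1+/+, 1.47, and the smallest error (SE 0.20, edgeR adjusted p = 0.0124). In Mr1-/- it was at -0.07 (SE 0.26). Pparg and Cebpa RNA therefore rose in Mr1+/+ mice, as did the hormone and carrier genes other than Lep, which did not pass. In Mr1-/- mice, with 1 PD fluid sample, none of the 8 passed, where 0.00% of all genes did.

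Of the 8 genes 6 have a promoter in the RefSeq table used here (build GRCm38.p6), with 3 starts for Pparg. The stretches below are the 120 bases before the start of 4 of them, shown because Pparg and Cebpa encode factors that are known to act on each other and on genes such as Adipoq and Lep. Capitals mark matches, on either strand, to the C/EBP site TTGCNNAA, to the box named for its letters CCAAT, to the TBP-bound element TATAAA and to AGGTCA, the single unit of the PPAR-RXR element.
Lep, chr6:29060101-29060220, plus strand: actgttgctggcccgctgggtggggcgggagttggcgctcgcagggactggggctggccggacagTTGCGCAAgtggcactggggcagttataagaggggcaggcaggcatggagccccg
Pparg, at the most downstream of its starts, chr6:115421946-115422065, plus strand: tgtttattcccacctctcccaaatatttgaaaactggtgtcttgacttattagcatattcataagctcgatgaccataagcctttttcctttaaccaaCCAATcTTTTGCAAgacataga
Cebpa, chr7:35119173-35119292, plus strand: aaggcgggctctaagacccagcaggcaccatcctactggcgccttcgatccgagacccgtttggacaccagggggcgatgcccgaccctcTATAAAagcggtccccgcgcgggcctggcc
Adipoq, chr16:23146416-23146535, plus strand: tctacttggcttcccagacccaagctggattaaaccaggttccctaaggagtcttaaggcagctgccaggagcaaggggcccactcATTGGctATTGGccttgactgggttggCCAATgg
The Lep promoter held a C/EBP match at -55 to -48 from the start, and the most downstream Pparg start, that of the fat-specific isoform, held one at -16 to -9 and another farther out at -215 to -208. Over the 250 bases before each start, 9.56% of the 32851 promoters in the table held such a match. Cebpa held TATAAA at -30 to -25 (12.4% of all promoters), and Adipoq held CCAAT 3 times between -34 and -3 (33.8% held at least 1). The single unit AGGTCA was found in the other two Pparg promoters (14.02% of all), and the full element AGGTCANAGGTCA in none of the 8 promoters of these genes and in 0.0335% of all. The promoters of Retn and Cfd held none of these letters. These matches are descriptions of the sequence, and the counts bear on RNA only.

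The calls in Mr1+/+ rested on few samples. Without Mr1+/+ PD fluid replicate 3 none of the 8 genes passed, with edgeR adjusted p of 0.0583 for Adipoq, Retn, Cfd, Car3 and Cebpa, and the log2 fold changes were 1.34 (Cebpa) to 1.78 (Lep). No gene of the whole table passed there (0.00%), where 3601 had an unadjusted p under 0.05. Without Mr1+/+ PD fluid replicate 2 the number was 4: Adipoq, Cfd, Car3 and Cebpa, each at an edgeR adjusted p of 0.0493, and calls over all genes went from 2286 to 338 (2.20%). A skeletal muscle score as a covariate also left 0 of 8 called and 0.253% of all genes, with the 8 at 0.52 (Fabp4) to 1.55 (Lep). That score, a mean log2 CPM of 7 genes, was -0.37 to 0.34 in the Mr1+/+ PD fluid samples and 0.44 to 1.50 in all others, so the score and the group cannot be told apart.

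In Mr1-/- mice 0 of the 8 genes passed in edgeR for PD fluid against PBS, and 0 of 8 had an unadjusted p under 0.05. Of all genes 0.00% passed in either direction and 1.50% had such an unadjusted p, and DESeq2 also called 0 of the 8 (0.0195% of all genes). The log2 fold changes ran from -0.24 (Cfd) to 0.48 (Pparg), with a median of 0.06 against -0.01 over all genes. Adipoq, Lep, Retn, Car3, Cebpa and Fabp4 each had the PD fluid sample between their pair of PBS samples, as did 43.3% of all genes. With 1 PD fluid sample, its spread is taken from the other groups.

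**Figure D2:**
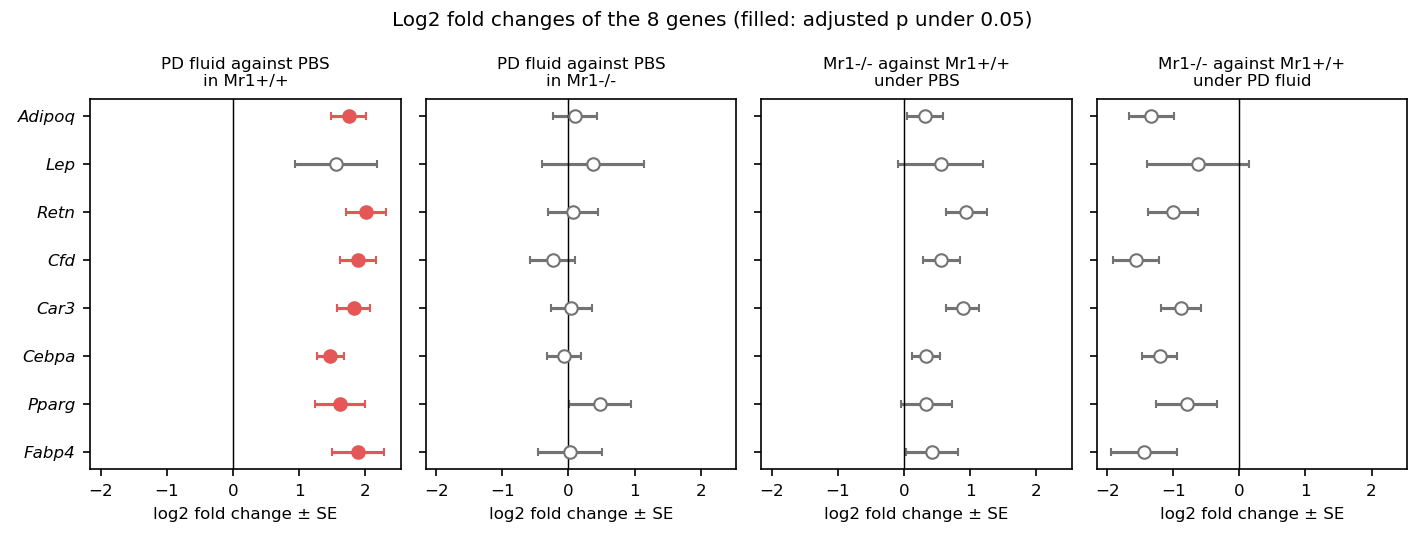
Log2 fold changes (points) with their SE (bars) for the 8 genes in 4 comparisons; filled red points passed an edgeR adjusted p under 0.05. The red points are the 7 genes at 1.47 to 2.02 in the first panel, and the second panel lies around 0.

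With PBS, all 8 genes had positive log2 differences of Mr1-/- against Mr1+/+, from 0.32 (Adipoq) to 0.95 (Retn), with a median of 0.49 against -0.02 over all genes. None passed in edgeR, where 0.0130% of all genes did. Retn (0.95, SE 0.31) and Car3 (0.89, SE 0.25) had an unadjusted p under 0.05, as did 8.64% of all genes, and DESeq2 called Car3 alone of the 8 (1.40% of all genes). The genotypes did not overlap for Retn, Car3, Cfd and Cebpa, with all 4 higher in Mr1-/-, a separation in that direction that 20.5% of all genes showed. Without Mr1-/- PBS replicate 1, Adipoq was at -0.053 and Lep at -0.023.

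With PD fluid the same difference was negative for all 8 genes, from -1.56 (Cfd) to -0.63 (Lep), with a median of -1.10 against 0 over all genes. For 7 of the 8, all but Lep, the Mr1-/- sample was below all 3 Mr1+/+ samples, as for 33.9% of all genes. None passed in edgeR, where 0.0130% of all genes did. An unadjusted p under 0.05 was reached by 6, against 8.85% of all genes in that direction: Cfd (-1.56, SE 0.35), Fabp4 (-1.44, SE 0.50), Adipoq (-1.33, SE 0.34), Cebpa (-1.21, SE 0.26), Retn (-1.001, SE 0.38) and Car3 (-0.89, SE 0.30). DESeq2 called 5 of the 8, against 5.65% of all genes. When the fit held these groups alone, edgeR called 3 of the 8 (4.48% of all genes), and with the 10 libraries kept apart, where a near-identical pair counts as separate samples, 6 of the 8 (22.9% of all genes).

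The effect of PD fluid was compared between the genotypes by an interaction term, the change in Mr1-/- minus that in Mr1+/+. It was negative for all 8 genes, from -2.13 (Cfd, SE 0.44) to -1.14 (Pparg, SE 0.61), with a median of -1.72 against 0.01 over all genes. None of the 8 passed in edgeR (adjusted p of 0.266 for Cfd, Car3 and Cebpa, and 0.272 for Adipoq and Retn), and 0.00% of all genes did. An unadjusted p under 0.05 was reached by 6, all but Lep and Pparg, against 7.16% of all genes in that direction. With 10 separate libraries edgeR called 6 of the 8 (10.1% of all genes), and DESeq2 on the 8 samples also called 6 (2.72% of all genes), in each case Adipoq, Retn, Cfd, Car3, Cebpa and Fabp4. Whether the rise differed between the genotypes thus depended on the test and on how the near-identical libraries were counted. The 4 comparisons and the interaction share samples, so their values for a gene are not independent of each other.

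Over the 8 samples the genes followed a common profile with Lep farthest from it. The difference between a gene's log2 CPM, centred on its own mean, and the mean profile of the 8 was 0.14 (Adipoq) to 0.29 (Retn) as a root mean square for 7 genes, and 0.52 for Lep. Among pairs without Lep the root mean square difference was 0.16 to 0.52, and among pairs with Lep 0.40 to 0.76. Mr1+/+ PD fluid replicate 1 held the highest Lep and Pparg of any sample but the lowest Adipoq, Retn, Cfd, Car3, Cebpa and Fabp4 of its group.

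**Figure D3:**
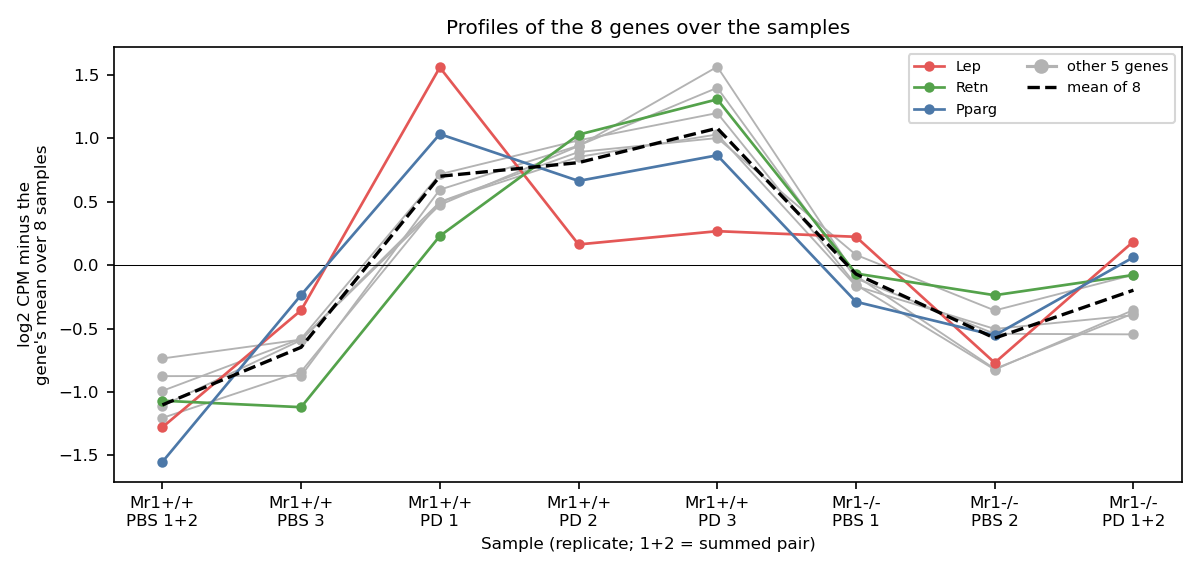
Log2 CPM of each gene minus its mean over the 8 samples, by sample, with Lep, Retn and Pparg in colour, the other 5 genes in grey and the mean of 8 dashed. Lep peaks at 1.56 in Mr1+/+ PD fluid replicate 1 and lies at 0.16 and 0.27 in replicates 2 and 3, where the mean is 0.81 and 1.08.

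Set against Adipoq in the same sample, Lep and Retn varied most of the 7 genes. The range over all samples was 2.19-fold for Retn, 1.97-fold for Pparg and 1.65-fold for Car3. It was narrower for Fabp4 (1.52-fold), Cfd (1.49-fold) and Cebpa (1.45-fold). Per 1000 CPM of Adipoq, Lep was at 353 CPM in Mr1+/+ PD fluid replicate 1 and at 111 and 103 CPM in replicates 2 and 3, a 3.42-fold range over all samples. Retn per 1000 CPM of Adipoq ranged from 138 to 301 CPM. Car3 was at 4663 to 5238 CPM per 1000 CPM of Adipoq in the 5 Mr1+/+ samples of both treatments and at 6578 to 7717 in the 3 Mr1-/- samples, without overlap, a 1.44-fold difference. The exact two-sided permutation test over 56 splits gave p = 0.0357, the smallest it can give, and 0.25 after Benjamini-Hochberg adjustment over the 7 ratios. Retn was 1.42-fold higher by the same ratio in Mr1-/- (exact permutation p = 0.0714, adjusted 0.25), with overlapping samples. Lep (1.43-fold), Pparg (1.23), Cebpa (1.105), Cfd (1.05) and Fabp4 (1.02) were also higher, with overlapping samples (exact permutation adjusted p of 0.45 to 0.79). Adipoq was chosen as the reference after the values were seen, and the splits took no account of treatment. These permutation p-values therefore describe the samples and decide nothing about genotype.

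**Figure D4:**
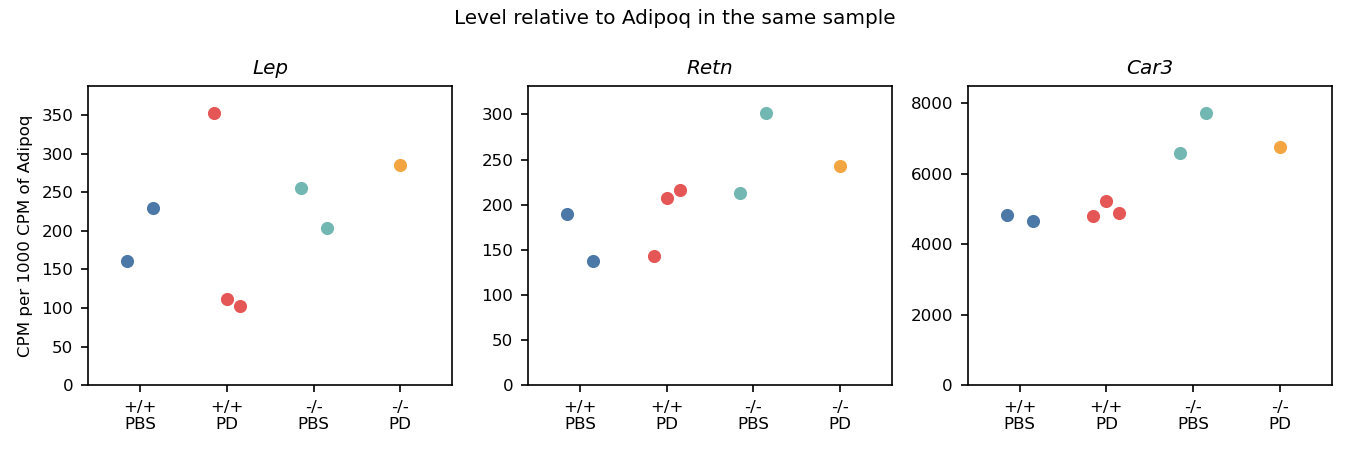
CPM of Lep, Retn and Car3 per 1000 CPM of Adipoq in the same sample, a point per sample, on linear axes from 0. The 3 Mr1-/- points for Car3 (6578 to 7717) lie above all 5 Mr1+/+ points (4663 to 5238), and Lep spans 103 to 353 within Mr1+/+ PD fluid.

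Genes outside the 8 whose profile lay nearest to their mean profile were Mgst1, Gnai1, Gask1b, Ppp1r3d and Cavin3, at root mean square differences of 0.11, 0.12, 0.12, 0.13 and 0.13 on the log2 scale. Over the 11532 genes compared the median was 0.78. The nearest gene to Adipoq was Cavin3 (0.098), which encodes a caveolar coat protein. For Cfd it was Mrap (0.083), the accessory protein of melanocortin receptors. For Fabp4 it was Dbi (0.094), the acyl-CoA binding protein, and for Car3 the protein kinase A subunit Prkar2b (0.11). Cebpa lay nearest to Ly6c1 (0.056), Retn to the phospholipid enzyme Chpt1 (0.13), Pparg to the oxidase gene Nox4 (0.20) and Lep to the protease inhibitor Timp4 (0.24).

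Most of the genes followed that PPARγ and C/EBPα are known to switch on also rose in Mr1+/+ mice. Of 20 such genes 17 rose and 0 fell, where 8.49% and 6.37% of all genes did, with a median of 1.49. Dgat2, which makes triglyceride, was at 1.57 (SE 0.16), the caveolin Cav1 at 1.72 (SE 0.20) and the fat cell adrenergic receptor Adrb3 at 1.65 (SE 0.23), each with an edgeR adjusted p of 0.0124. In Mr1-/- mice the median of the same 20 was 0.03 and 0 passed, where 0.00% of all genes did.

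Of 15 other factors that fat secretes, 8 rose and 0 fell in Mr1+/+, where 8.49% and 6.37% of all genes did. Their median was 0.97. Rbp4, the retinol carrier, was at 2.01 (SE 0.29), angiotensinogen (Agt) at 1.56 (SE 0.28) and lipocalin 2 (Lcn2), which neutrophils and inflamed epithelia also make, at 3.48 (SE 0.64). In Mr1-/- 0 of 15 passed, where 0.00% of all genes did, with a median of 0.

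In Mr1+/+, where 8.49% of all genes rose and 6.37% fell, 3 of 10 genes for adipokine receptors and their signalling rose and 0 fell. These were Cdh13 (1.64, SE 0.34), the T-cadherin that binds adiponectin, the apelin receptor Aplnr (2.05, SE 0.46) and the adiponectin receptor Adipor2 (0.86, SE 0.23). The leptin receptor Lepr was at 0.02 (SE 0.31) and Adipor1 at 0.29 (SE 0.15), without passing.

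Upstream regulators of fat cell formation did not move as one. Of 20, 6 rose and 1 fell in Mr1+/+, where 8.49% and 6.37% of all genes did, with a median of 0.08. Klf15, a factor that acts on Pparg, was at 1.24 (SE 0.19), the lipogenic factor Srebf1 at 0.77 (SE 0.13) and the liver X receptor gene Nr1h3 at 0.83 (SE 0.14). The Mediator subunit Med1, a PPARγ coactivator, fell (-0.70, SE 0.18). Of 12 brakes on fat cell formation, 3 rose and 0 fell: Nr2f2 (0.94, SE 0.15), Gata2 (1.14, SE 0.24) and Zfp521 (0.83, SE 0.18).

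**Figure D5:**
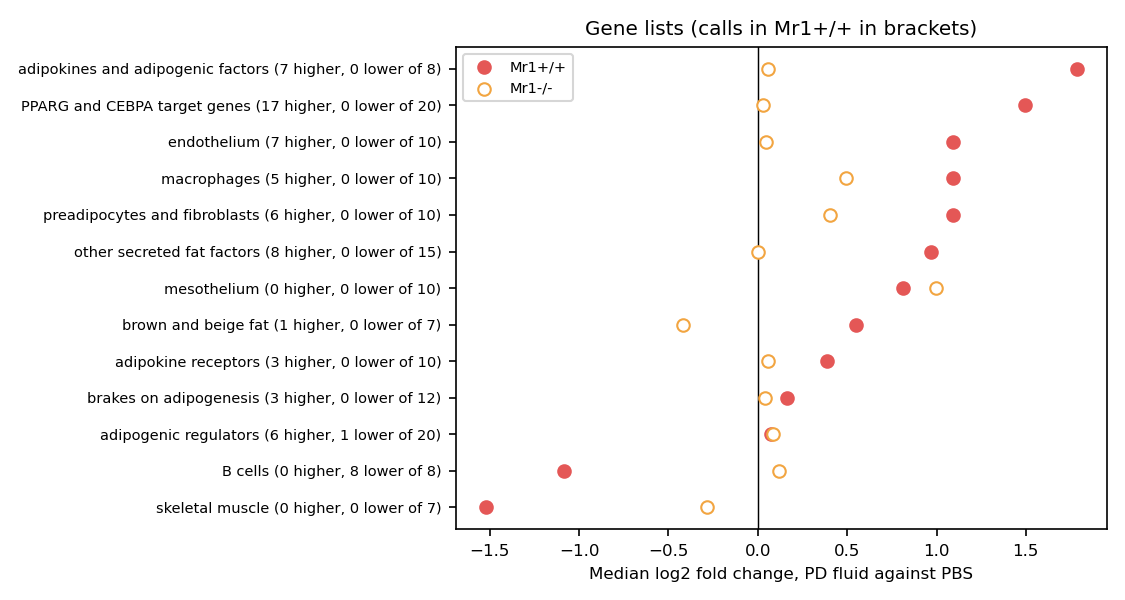
Median log2 fold change of PD fluid against PBS by gene list, filled red for Mr1+/+ and open orange for Mr1-/-, with the number of genes that passed in Mr1+/+ in brackets. The lists of liver, pancreas, intestine and sequence relatives are not drawn. The 8 adipokines and adipogenic factors (1.79) and the 20 target genes (1.49) lie farthest to the right in Mr1+/+ and near 0 in Mr1-/- (0.06 and 0.03).

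Relatives of the 8 genes by sequence were also followed. Of 13 tested, 3 rose and 0 fell in Mr1+/+, where 8.49% and 6.37% of all genes did. The 3 were the mitochondrial carbonic anhydrase gene Car5b (1.72, SE 0.14), C1qtnf1 (0.73, SE 0.17) and C1qtnf2 (1.22, SE 0.32). C1qtnf1 and C1qtnf2 are C1q and TNF related genes, relatives of Adipoq. Car5b was at 70.4 and 71.0 CPM in Mr1+/+ PBS and 209 to 247 CPM in Mr1+/+ PD fluid, a log2 fold change close to that of Car3. The carbonic anhydrase genes Car1 (-9.86, SE 3.06) and Car2 (-1.96, SE 1.03) were negative without passing. Both were highest in Mr1+/+ PBS replicate 3, at 1925 and 173 CPM. The resistin-like Retnla (1.02, SE 0.80) and Retnlg (2.15, SE 0.98) did not pass, nor did Fabp5 (0.82, SE 0.32), Ppara (-0.29, SE 0.68) and Ppard (-0.28, SE 0.19).

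Markers of other cells moved in the same samples. Beside the counts below, 8.49% of all genes rose and 6.37% fell in Mr1+/+. Of 10 endothelial genes 7 rose in Mr1+/+, with summed levels of 1078 and 1167 CPM in the PBS samples and 1698 to 2035 CPM after PD fluid. Among them Gpihbp1, which anchors lipoprotein lipase, was at 1.74 (SE 0.27), Tie1 at 1.04 (SE 0.16), Esam at 1.41 (SE 0.24) and Cdh5 at 0.93 (SE 0.23), while Pecam1 (0.45, SE 0.15) did not pass. Of 10 macrophage genes 5 rose, at a summed 1928 and 2137 CPM with PBS and 2371 to 3130 CPM after PD fluid. The scavenger receptor gene Cd163 was at 1.69 (SE 0.22), Mrc1 at 1.20 (SE 0.24), Itgam at 1.55 (SE 0.38) and Adgre1 at 1.49 (SE 0.37), while Csf1r (0.44, SE 0.19) did not pass. Of 10 genes of preadipocytes and fibroblasts 6 rose, from a summed 1085 and 1098 CPM to 2118 to 2452 CPM, with Dpt at 1.95 (SE 0.26), Cd34 at 1.48 (SE 0.20), Lum at 1.76 (SE 0.29), Pdgfra at 0.71 (SE 0.13) and Pdgfrb at 0.77 (SE 0.19). All 8 B cell genes fell, from a summed 2008 and 3189 CPM to 1121 to 1251 CPM, with Pax5 at -1.62 (SE 0.22) and Cd22 at -1.30 (SE 0.21).

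In Mr1-/- mice no gene of these 4 lists passed, where 0.00% of all genes did. All 4 sums were higher in the 1 PD fluid sample than in both PBS samples, a position that 28.7% of all genes held singly. The preadipocyte and fibroblast list summed to 1347 and 1136 CPM with PBS and 1881 CPM with PD fluid, and the macrophage list to 1959 and 1703 CPM against 2217 CPM. The endothelial list summed to 1150.0 and 1017 CPM against 1183 CPM, and the B cell list to 2262 and 2175 CPM against 2408 CPM. Log2 fold changes were positive for 10 of 10 macrophage, 10 of 10 preadipocyte and fibroblast, 6 of 10 endothelial and 7 of 8 B cell genes. Their medians were 0.49, 0.41, 0.05 and 0.12, against -0.01 over all genes. Cd163 was at 1.71 (SE 0.27), Mrc1 at 0.91, Itgam at 0.53, Adgre1 at 0.99 and Csf1r at 0.48. The part of these cells in the levels of Fabp4, Pparg and Cebpa was not tested.

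In the muscle, liver, pancreas and intestine lists no gene but Alb passed in Mr1+/+, where 8.49% of all genes rose and 6.37% fell. Of 10 mesothelial genes 0 passed in Mr1+/+, and 7 were positive, with a median of 0.81. In Mr1-/- all 10 were positive, with a median of 0.996. The mesothelial list summed to 194 and 1085 CPM in Mr1+/+ PBS and 194 to 509 CPM in Mr1+/+ PD fluid. Its Mr1-/- sums were 220 and 85.0 CPM with PBS and 356 CPM with PD fluid. The muscle genes Tnnt3 (-1.58, SE 0.55), Acta1 (0.41, SE 0.39) and Ckm (-4.04, SE 1.98) were at no more than 313, 274 and 62 counts (Acta1, Ckm and Tnnt3) in any library. Krt8, a keratin gene of the mesothelial list, was highest in Mr1+/+ PBS replicate 3, at 584 CPM. So were the intestinal Muc2, Vil1 and Epcam (663, 254 and 313 CPM) and the pancreatic Cpa1, Pnlip and Cela1 (3161, 5021 and 2888 CPM).

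Brown and beige fat genes ranged widely in level. Ucp1, the defining gene of brown fat, was at 0 in 9 of 10 libraries and had no more than 3 counts. Zic1 and Elovl3 had no more than 1 and 5 counts. Tbx1 had 199 to 396, Prdm16 133 to 296 and Cidea 39 to 374 counts in a library. Tbx1 and Prdm16 did not pass in Mr1+/+. Of 7 tested brown and beige fat genes 1 rose in Mr1+/+, where 8.49% of all genes did. It was Cox8b (2.71, SE 0.76), with at most 76 counts in a library. Cidea was at 2.09 (SE 0.70) and did not pass.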

How the data were processed

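Poly-A RNA of 10 libraries was reverse-transcribed with random primers, per the labels' protocols, which name no strand-marking step and no molecular identifiers. The authors deposited 1 table of raw counts, by gene symbol. The submitters' processing notes name mm10 as build; for the aligner, counter and annotation, they were not given in the sources used here. Rows sharing a symbol were summed (21899 rows to 21877 symbols). Coordinates and transcript lengths came from GENCODE M21, of the same build. Nothing says that libraries came from separate mice, so the spread behind each p-value is that between these samples and could be technical. Pairs within groups with a chi-square per gene under 5 were summed. The 15385 genes kept by filterByExpr were fitted in 4 group means with edgeR 4.0.16 (R 4.3.3; TMM, robust quasi-likelihood, 4 residual degrees of freedom). SE were derived from the fold change and its F statistic. The script was tested on simulated data. DESeq2 1.42.0 and the other alternatives are described at the end. Log2 CPM used a prior count of 2.

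The 8 genes and the gene lists were chosen with earlier results of these data known. Genes named were Mr1, the 8, from each list up to 3 called genes with the smallest p (mean CPM of at least 5) or else 1, the first 2 of each cell type list, and those nearest in profile; 1 gene under this rule is not reported here. Others named with values (Retnla, Retnlg, Fabp5, Ppara, Ppard, Car1, Car2, C1qtnf2, Lepr, Adipor1, Med1, Tbx1, Prdm16, Zic1, Elovl3) were chosen after their values were seen.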

Additional observations from a re-analysis of the deposited data

How the results depend on the processing

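In Mr1+/+ mice the number of the 8 genes called for PD fluid was 6 to 8 of 8 under 7 alternatives (10 separate libraries, the replicate block, DESeq2, DESeq2 size factors, library totals, no filter, only the groups compared) and 0 with the skeletal muscle covariate. Leaving out 1 library at a time gave 0 to 7, and every one of the 8 stayed positive under each alternative. The 0 came without Mr1+/+ PD fluid replicate 3, and calls over all genes went from 2286 to 0 there and to 39 with the muscle covariate; with 10 libraries they were 5549 and with DESeq2 3783. For PD fluid in Mr1-/- the number called was 0 throughout. With the muscle covariate Adipoq (-0.063), Retn (-0.11), Car3 (-0.10) and Fabp4 (-0.23) turned negative there. Leaving out 1 library gave log2 ranges that crossed 0 for Adipoq (-0.20 to 0.47), Lep (-0.037 to 0.96), Retn (-0.011 to 0.16), Car3 (-0.16 to 0.28), Cebpa (-0.23 to 0.11) and Fabp4 (-0.30 to 0.44). For genotype with PBS the number called was 1 with DESeq2 and 0 otherwise, and leaving out 1 library gave -0.053 to 0.62 for Adipoq and -0.023 to 1.09 for Lep. For genotype with PD fluid it was 6 with 10 separate libraries, 5 with DESeq2 and 3 with only the groups compared, where calls over all genes went from 2 to 3400, 870 and 689. For the interaction it was 6 with 10 separate libraries and 6 with DESeq2, where calls over all genes went from 0 to 1490 and 419. Leaving out 1 library gave 0 calls in these 4 comparisons. Where 1 library of a near-identical pair was left out, the other stayed, so the only Mr1-/- PD fluid sample was never removed. Deviations of same-numbered libraries correlated at -0.16 to 0.17, and those of libraries with other numbers at -0.18 to 0.18. In groups of 2 libraries the deviations are mirror images, so the correlations could not decide whether replicate numbers pair the libraries. With the replicate block on the 10 libraries the calls were 8, 0, 0, 5 and 6 for the 5 comparisons in the order given. Near-identical pairs count as separate samples there, and 5537 of the 14815 genes tested were called in the first comparison. Across the alternatives without left-out libraries, calls over all genes reached 3400 for genotype with PD fluid and 1915 for the interaction. Each of the 8 genes had at least 427 counts in every library.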
